A study of Mus musculus with 16 samples.

Results

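The collagens of loose connective tissue and the small proteoglycans that bind them were followed in mouse granulosa cell (mGC) isolates by RNA-seq. The 10 genes were Col1a1, Col1a2, Col3a1, Col5a1, Col6a1, Col6a3, Col6a4, Lum, Dcn and Fmod, out of 57010 genes counted, and each was found by its symbol in both count tables. The other 9 were named for what they encode, and Col6a4 was chosen by its measured counts, which were lower in the EM group than in the Con group, so its values in that contrast are a description and were not tested. All 10 genes passed the filter on low counts in both comparisons that include fresh mGCs, and 9 passed it in the comparison of cultured mGCs, where Col6a4 was too low.

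All animals were female ICR mice, 6 weeks old at purchase. Mice of the EM group carried endometrium of estradiol-treated ICR donors sutured to the intestinal mesentery, an allograft model of endometriosis, and mice of the Con group had sham surgery. Receptor mice kept their ovaries and were themselves given estradiol every other day after surgery, followed by a washout, and the methods do not spell out whether the sham-operated mice were included. Ovulation was then induced, for which the methods name pregnant mare serum gonadotropin (PMSG) or HCG, and mGCs were harvested from the ovaries without a sorting step being described. Fresh mGCs gave 5 Con-mGC and 5 EM-mGC libraries. In a separate experiment mGCs from EM mice were grown in DMEM/F12 with fetal bovine serum for 24 h and then kept for 24 h with 100 nM 14,15-EET, an epoxide of arachidonic acid, or with its vehicle PBS, which gave 3 EET and 3 PBS libraries. The cultured cells came from 6 mice, and the methods do not spell out how 6 mice became 3 paired replicates, so p-values there measure the spread between these libraries. Total counts were 14229123 to 15999234 per fresh library and 21384686 to 29482826 per cultured library. The share of counts from mitochondrially encoded genes was 21.8% in EM-mGC-3, against 6.76% to 11.1% in the other fresh libraries and 1.18% to 1.64% in culture.

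Collagen I, III and V assemble into the striated fibrils of connective tissue. Collagen I is built from the chains of Col1a1 and Col1a2, collagen III from Col3a1 alone, and collagen V, which sets fibril diameter, from Col5a1 with its partner Col5a2. Collagen VI forms beaded filaments around cells from the chains of Col6a1 and Col6a2 with a long chain from Col6a3, Col6a4, Col6a5 or Col6a6. Lumican (Lum), decorin (Dcn) and fibromodulin (Fmod) are small leucine-rich proteoglycans that coat collagen fibrils and regulate their growth. In the ovary these genes are known mainly from the theca and the stroma around the follicle, which are separated from granulosa cells by the basal lamina.

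In the deposited coordinates, with GRCm39 as the build in the submitters' processing notes, Col1a1 lies at chr11:94827050-94843868, Col1a2 at chr6:4504814-4541544, Col3a1 at chr1:45350698-45388866 and Col5a1 at chr2:27776437-27929526, all on the plus strand. Col6a1 at chr10:76544626-76562002, Col6a3 at chr1:90693645-90771693 and Col6a4 at chr9:105866653-105973982 lie on the minus strand. Dcn at chr10:97315471-97354005 and Lum at chr10:97400990-97408565 are neighbours on the plus strand, and Fmod lies at chr1:133964992-133976015 on the plus strand. Other counted genes overlap Col1a2, Col3a1, Col5a1, Col6a3 and Col6a4, and none of these overlapping genes had more than 14 counts in a fresh library.

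Promoter windows are shown for 4 genes that behaved differently in the data: Col1a2 and Col3a1, which fell in culture, Col5a1, which did not, and Col6a4, which had the lowest log2 fold change of the set in EM-mGCs against Con-mGCs. Each run is the 250 bases before the RefSeq gene start on GRCm38.p6, written 5′ to 3′ on the gene's strand, and capitals mark matches on either strand to CCAAT, the box bound by NF-Y, to TATAAA, a core promoter box, or to GGGCGG, a box bound by Sp1 that reads CCGCCC on the other strand.
Col1a2, chr6:4505368-4505617 on the plus strand: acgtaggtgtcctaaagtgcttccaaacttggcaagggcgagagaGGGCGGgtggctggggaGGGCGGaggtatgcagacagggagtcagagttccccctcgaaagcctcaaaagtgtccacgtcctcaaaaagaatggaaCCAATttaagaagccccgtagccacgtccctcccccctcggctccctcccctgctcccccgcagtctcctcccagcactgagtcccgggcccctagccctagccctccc
Col3a1, chr1:45311288-45311537 on the plus strand: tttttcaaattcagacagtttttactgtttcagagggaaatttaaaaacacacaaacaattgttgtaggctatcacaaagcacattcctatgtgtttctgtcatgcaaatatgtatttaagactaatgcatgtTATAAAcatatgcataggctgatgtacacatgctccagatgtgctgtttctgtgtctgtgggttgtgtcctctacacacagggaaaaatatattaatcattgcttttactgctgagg
Col5a1, chr2:27886175-27886424 on the plus strand: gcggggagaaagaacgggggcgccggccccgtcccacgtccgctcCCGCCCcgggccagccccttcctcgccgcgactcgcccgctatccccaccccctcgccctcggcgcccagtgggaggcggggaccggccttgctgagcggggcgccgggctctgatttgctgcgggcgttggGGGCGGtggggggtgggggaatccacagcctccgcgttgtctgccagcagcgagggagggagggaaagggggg
Col6a4, chr9:106096692-106096941 on the minus strand: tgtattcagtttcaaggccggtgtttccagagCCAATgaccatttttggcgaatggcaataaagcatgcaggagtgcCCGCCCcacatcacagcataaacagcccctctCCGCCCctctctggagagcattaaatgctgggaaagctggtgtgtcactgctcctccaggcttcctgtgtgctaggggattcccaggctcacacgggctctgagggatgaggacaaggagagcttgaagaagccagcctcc
No match overlapped another. Col1a2 held CCAAT 109 bases before its start, and Col6a4 held it 218 bases before its start, where 33.8% of 32851 windows of this length held that motif. TATAAA was found in Col3a1 at 117 bases before the start, and 12.4% of all windows held it. GGGCGG was found at 2 places each in Col1a2, Col5a1 and Col6a4, and 32.7% of all windows held it. The windows of Col6a1, Col6a3 and Fmod held none of the motifs. These are matches of letters and not sites of binding.

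Levels are given as CPM, read counts scaled to the library total with TMM factors over all 16 libraries. In Con-mGCs, per kb of the longest coding transcript, Col6a1 (110 ± 6.32 CPM per kb, SD, n = 5) and Col3a1 (108 ± 8.37) stood highest with ranges that overlapped. Col1a2 (71.6 ± 4.74), Col1a1 (61.2 ± 8.44) and Dcn (54.0 ± 9.18) followed, each overlapping the next. Lum (17.3, range 14.2 to 23.8) stood apart from both neighbours, and Col5a1 (12.1 ± 1.12), Col6a3 (9.69 ± 1.05) and Col6a4 (8.90 ± 2.90) overlapped in that order. Fmod was lowest at 0.527 ± 0.230 CPM per kb, clear of all others. In EM-mGCs the order differed only in that Dcn (60.4 ± 24.1) had a higher mean than Col1a2 (48.1 ± 14.5) and Col1a1 (31.5 ± 10.6), with overlapping ranges.

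The order was different in culture. In PBS libraries Col1a1 led with 39.3 ± 8.21 CPM per kb (SD, n = 3), followed by Col5a1 with 12.4 ± 0.767 and Col6a1 with 6.32 ± 1.08, none of which overlapped the next. Col1a2 (3.42 ± 0.519) overlapped Col3a1 (3.04 ± 0.403), Dcn (0.927 ± 0.373) overlapped Fmod (0.460 ± 0.215), and Col6a3, Lum and Col6a4 were the lowest, at 0.170 ± 0.0104, 0.116 ± 0.0447 and 0.0615 ± 0.0152. EET libraries had the same order except that Lum (0.347 ± 0.0793) came before Col6a3 (0.310 ± 0.0454), with overlapping ranges. The 10 genes together took 0.247% ± 0.0103 of all counts in Con-mGCs, 0.161% ± 0.0478 in EM-mGCs, 0.0351% ± 0.00437 with PBS and 0.0353% ± 0.000780 with EET.

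**Figure D1:**
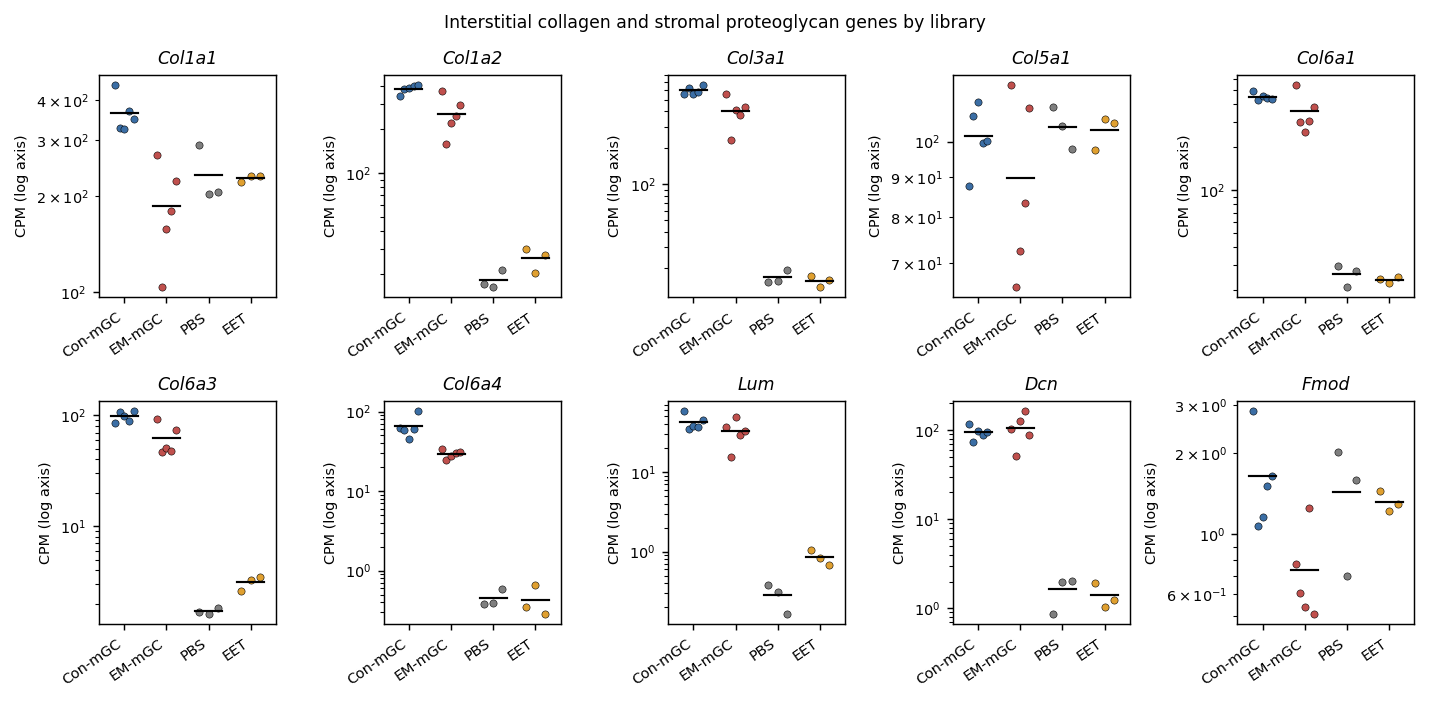
CPM of each of the 10 genes in every library, on a log axis that differs between panels, with 1 point per library and a bar at the group mean. The fresh and cultured libraries of Col1a1, Col5a1 and Fmod overlapped, while the cultured libraries of the other 7 genes lay below every fresh library.

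The marker genes of other cells of the ovary were present in the fresh isolates. Granulosa markers were strong, with Inha at 4288 to 6609 CPM in Con-mGCs and 2593 to 7560 in EM-mGCs, and Foxl2 at 163 to 276 CPM in EM-mGCs. All 6 theca markers reached a mean of 1 CPM in both groups, with Cyp17a1, the androgen-making enzyme of theca cells, at 148 to 240 CPM in Con-mGCs and 139 to 289 CPM in EM-mGCs. Theca sums were 818 to 1192 CPM in Con-mGCs and 858 to 1371 CPM in EM-mGCs, but the list was not uniform. The hedgehog target Gli1 was at 4.61 to 7.11 CPM in Con-mGCs and 1.69 to 3.10 CPM in EM-mGCs without overlap, and Hhip had means of 2.65 and 1.46 CPM. Lhcgr, the LH receptor gene, made up most of the theca sums, with means of 756 and 825 CPM. Insl3 had means of 2.12 and 3.36 CPM. Ovarian stroma markers (Pdgfra, Tcf21, Nr2f2, Mfap5, Mfap4, Dpt, Thy1 and Pi16) summed to 123 to 148 CPM in Con-mGCs and 73.9 to 126 CPM in EM-mGCs. Endothelial markers summed to 157 to 182 CPM in Con-mGCs and 88.9 to 159 CPM in EM-mGCs. The lowest stroma, smooth muscle, endothelial and surface epithelial sums among EM-mGCs were all in EM-mGC-2, which also had the highest granulosa sum, 15550 CPM. In bulk RNA, fewer cells of a type and less RNA of a gene per cell cannot be told apart.

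Among the fibril genes, Col1a1 had the lowest log2 fold change between mGCs of EM and Con mice, and Col1a2 and Col3a1 lay close to each other. Col1a1 measured 446, 327, 325, 369 and 347 CPM in the 5 Con-mGC libraries and 269, 104, 158, 180.3 and 223 CPM in the 5 EM-mGC libraries. Every EM-mGC library lay below every Con-mGC library, and the mean was 1.95-fold lower. Col1a2 measured 342, 378, 389, 399 and 407 CPM in Con-mGCs and 366, 159, 221, 247 and 293 CPM in EM-mGCs. Here EM-mGC-1 reached into the Con-mGC range and the other 4 EM-mGC libraries did not. Col3a1, the collagen III chain, measured 563, 631, 562, 577 and 667 CPM in Con-mGCs and 558, 233, 410.2, 377 and 435 CPM in EM-mGCs. These groups did not overlap, although EM-mGC-1 came within a few CPM of the lowest Con-mGC library. Col5a1 was 102 ± 9.46 CPM in Con-mGCs and 90.0 ± 23.4 CPM in EM-mGCs (SD, n = 5), with overlapping libraries.

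The log2 fold change of EM-mGC against Con-mGC was -0.96 (SE 0.214) for Col1a1, -0.58 (SE 0.184) for Col1a2, -0.58 (SE 0.188) for Col3a1 and -0.18 (SE 0.159) for Col5a1. None passed the threshold of 0.05 after Benjamini-Hochberg adjustment over the 17229 genes tested, with adjusted p by edgeR's quasi-likelihood test of 0.348, 0.437, 0.443 and 0.726. With DESeq2 the adjusted p of Col1a1 was 0.0107, while the adjusted p under its other alternatives reached up to 0.783. For scale, 0.784% of the genes tested had a lower log2 fold change than Col1a1.

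Within collagen VI, Col6a1 measured 493, 427, 454, 442 and 433 CPM in Con-mGCs and 549, 301, 257, 303 and 383 CPM in EM-mGCs. EM-mGC-1 was the highest of all 10 fresh libraries and the other 4 EM-mGC libraries were below the Con-mGC range. Col6a3 measured 86.0, 107, 98.0, 88.8 and 109.6 CPM in Con-mGCs and 92.3, 46.8, 50.8, 47.9 and 74.6 CPM in EM-mGCs, with EM-mGC-1 inside the Con-mGC range and the other 4 below it. The log2 fold changes were -0.33 (SE 0.181, adjusted p = 0.572) for Col6a1 and -0.66 (SE 0.184, adjusted p = 0.390) for Col6a3 by edgeR. Col6a4, one of the alternative long chains, measured 62.3, 58.4, 44.6, 61.1 and 102 CPM in Con-mGCs and 33.4, 24.2, 27.6, 30.5 and 30.7 CPM in EM-mGCs. The EM-mGC libraries formed a narrow band below all Con-mGC libraries, with Con-mGC-5 far above the rest of its group. Its log2 fold change, which is the value it was picked for, was -1.17 (SE 0.189), and without Con-mGC-5 it was -0.96. The remaining chains were Col6a2, at 262 ± 43.6 CPM in Con-mGCs and 187 ± 71.4 CPM in EM-mGCs, and Col6a5 and Col6a6, of which Col6a5 was at 54.3 ± 28.5 and 57.6 ± 39.6 CPM. None of the 3 passed the test (0 of 3).

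The 3 proteoglycans did not move as a group. Lum measured 58.4, 34.7, 37.5, 36.2 and 45.2 CPM in Con-mGCs and 36.7, 15.3, 49.2, 29.5 and 32.3 CPM in EM-mGCs, with overlap. Dcn measured 118, 74.0, 98.4, 89.0 and 95.3 CPM in Con-mGCs and 103, 50.7, 126, 164 and 87.1 CPM in EM-mGCs. Dcn thus had both its lowest and its highest fresh library in the EM group, EM-mGC-2 and EM-mGC-4. Fmod was scarce, with 19 to 47 counts in Con-mGC libraries and 7 to 20 counts in EM-mGC libraries, or 1.65 ± 0.718 and 0.735 ± 0.307 CPM (SD, n = 5). By edgeR the log2 fold changes were -0.39 (SE 0.25, adjusted p = 0.628) for Lum, 0.16 (SE 0.248, adjusted p = 0.854) for Dcn and -1.15 (SE 0.368, adjusted p = 0.438) for Fmod. The value for Dcn was -0.06 without EM-mGC-4.

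By edgeR, 0 of the 9 genes tested passed the adjusted threshold between EM-mGC and Con-mGC, where 0% of all 17229 genes did. With DESeq2 the count was 1 of 9, Col1a1, among 116 genes in all. At an unadjusted p under 0.05 there were 5 of 9, Col1a1, Col1a2, Col3a1, Col6a3 and Fmod, all lower in EM-mGCs, against 4.22% of all genes in that direction. Fmod, at 7 to 20 counts in EM-mGC libraries, passed the filter on low counts only through Con-mGC, where it is high. It thus adds nothing to that count or to the shared direction. In 8 of the 9 the log2 fold change was below 0, and their median was -0.58 against -0.01 over all genes tested. Col1a1 and Col3a1 were the 2 of 9 with every EM-mGC library below every Con-mGC library, which held for 0.743% of all genes. The set was drawn up with these results known, so the shared direction is a description.

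**Figure D2:**
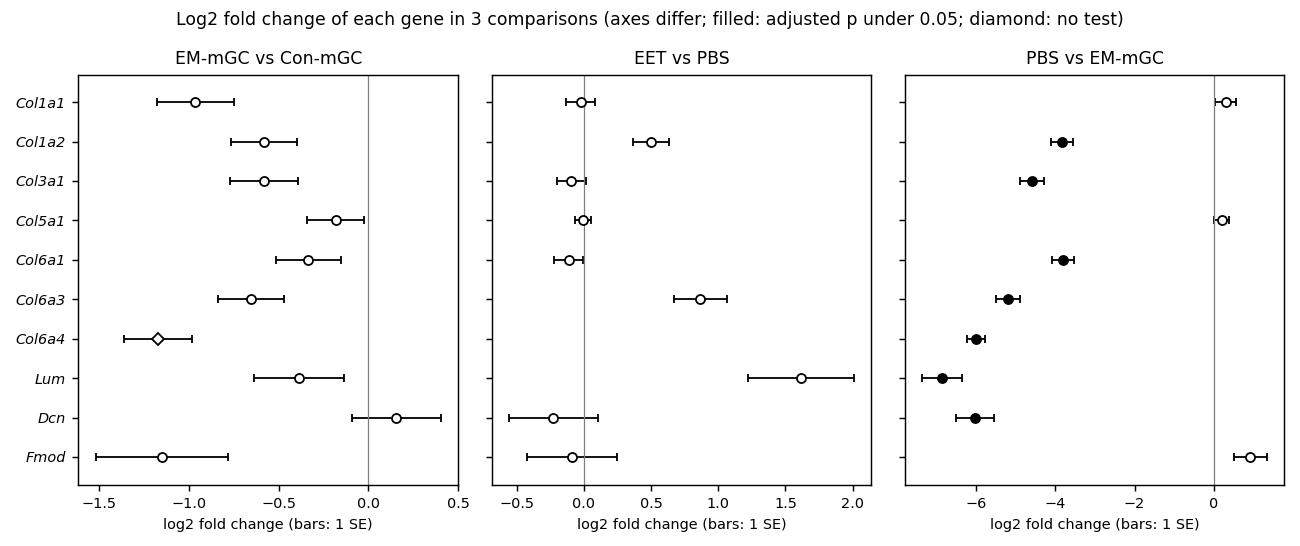
Log2 fold change of each gene in the 3 comparisons, with bars of 1 SE and axes that differ between panels. Filled points passed an adjusted p of 0.05 by edgeR, the diamond is Col6a4 in the contrast it was chosen for, and only the comparison of PBS with EM-mGC, in the right panel, has filled points, 7 of 10. Col6a4 was not tested between EET and PBS and has no point there.

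The genes did not all vary alike among the 10 fresh libraries. The log2 CPM of Col1a1 correlated with the mean standardized level of the other members at a Pearson r of 0.972, Col3a1 at 0.956 and Col1a2 at 0.952, over 10 libraries. Values were 0.849 for Col6a3, 0.775 for Col6a4, 0.760 for Col6a1, 0.692 for Lum, 0.682 for Col5a1 and 0.610 for Fmod. Dcn stood apart at 0.209. With the group means removed, Col1a1 still had the highest value, 0.949, and Fmod the lowest, 0.172. Dcn then no longer stood apart, at 0.456 beside 0.441 for Col6a4. Outside the set, 12785 genes were compared in the same way, and the most alike were Stab1, a scavenger receptor (r = 0.963), Plxnd1, a semaphorin receptor (0.949), the collagen gene Col16a1 (0.947), Mrc2, an uptake receptor for collagen fragments (0.947), the natriuretic peptide receptor gene Npr1 (0.946), Filip1 (0.945) and Podxl (0.941). With group means removed these 7 values lay between 0.870 and 0.938. All points share the libraries, their depth and the mix of cells in each isolate, so the values are descriptions.

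Among the partners and processing genes of the collagens, 0 of the 97 tested genes of 8 related lists passed by edgeR between the fresh groups. At an unadjusted p under 0.05 there were 18 of the 97, against 9.44% of all genes, and the direction was mixed between lists. Mmp8, at 0 to 1.73 CPM in Con-mGCs, passed the filter on low counts only through EM-mGC, where it is high. It thus adds nothing to the 18. The 9 tested fibrillar and associated collagens had a median log2 fold change of -0.24, with 7 below 0, and their most abundant member Col27a1 was at 113 ± 23.7 CPM in Con-mGCs and 102 ± 42.7 CPM in EM-mGCs. Of 9 other small leucine-rich proteoglycans tested, 8 were below 0 with a median of -0.27. Biglycan (Bgn), the most abundant of them, was at 148 ± 39.4 and 135 ± 51.6 CPM. The 26 maturation enzymes and chaperones had a median of -0.10, with P4hb, a subunit of the prolyl hydroxylase of collagen, at 839 ± 52.6 and 907 ± 95.7 CPM. Genes for collagen breakdown (median 0.17, 11 tested), collagen receptors (-0.12, 10 tested), stromal matrix partners (-0.27, 12 tested) and regulators of the TGF-β pathway (0.05, 17 tested) straddled 0. Their most abundant members were Mmp14, Itgb1, Sparc and Ltbp1, with adjusted p between 0.693 and 0.955.

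Some marker sums moved with these values and others did not. Only EM-mGC-3 of the 5 EM-mGC libraries had a stroma sum within the Con-mGC range, and EM-mGC-1, the highest EM-mGC library in Col1a1, Col1a2, Col3a1, Col5a1, Col6a1, Col6a3 and Col6a4, had the highest endothelial and surface epithelial sums of its group, 159 and 208 CPM. EM-mGC-2, the lowest library in most of the set, had the lowest stroma, smooth muscle and endothelial sums but the highest theca sum, 1371 CPM. Most of that theca sum came from Lhcgr. EM-mGC-3 had the highest stroma and smooth muscle sums of its group, 126 and 277 CPM, and the lowest Col6a1 of all fresh libraries. Leukocyte markers summed to 171 to 353 CPM in Con-mGCs and 260 to 648 CPM in EM-mGCs. The part of these cells in the lower collagen levels was not tested. With mitochondrially encoded genes left out before normalization, no member changed direction or passed the threshold.

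**Figure D3:**
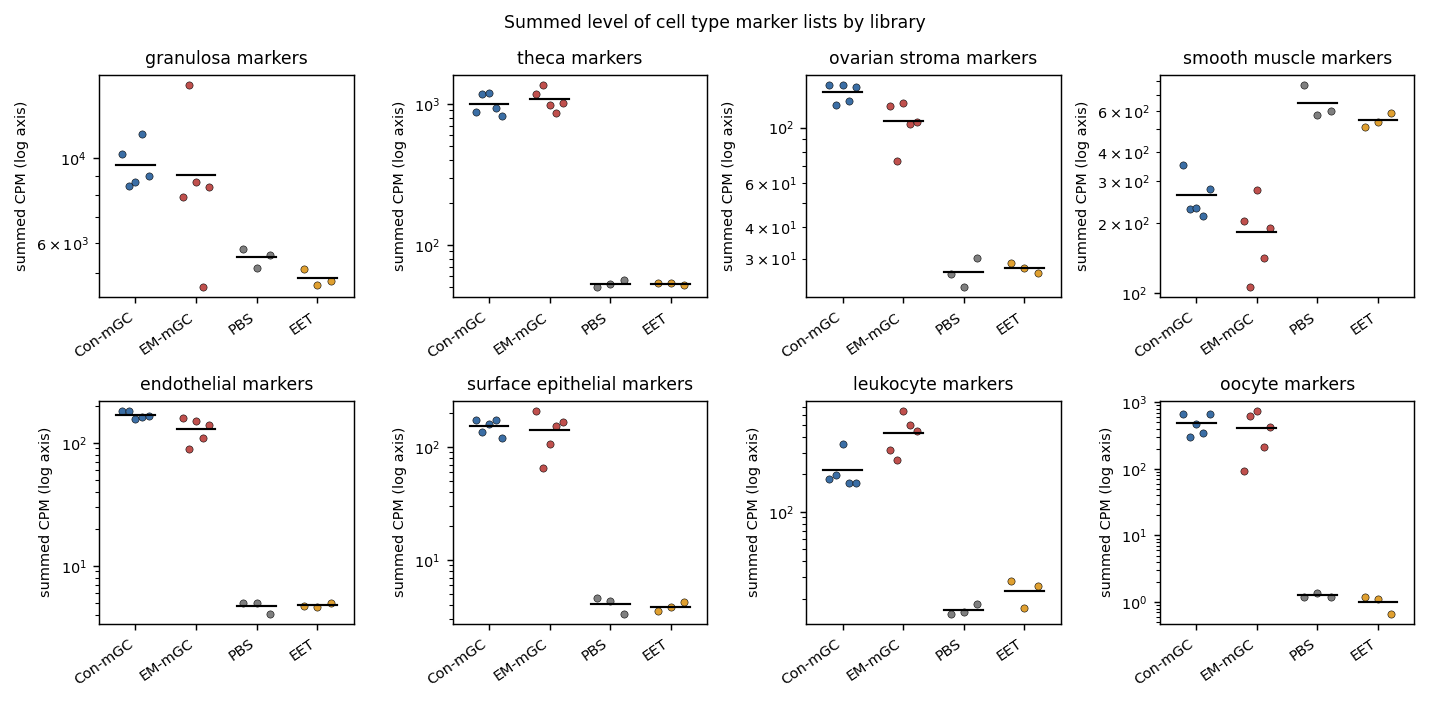
Summed CPM of 8 lists of cell type markers in every library, on log axes that differ between panels, with a bar at the group mean. Theca, stroma, endothelial, surface epithelial, leukocyte and oocyte sums were lower in every cultured library than in every fresh library, and smooth muscle sums were higher.

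The second comparison asked what 14,15-EET changed in cultured mGCs of EM mice. Most of the set overlapped between the groups, and Col1a2, Col6a3 and Lum were higher with EET without passing the adjusted threshold. Lum measured 0.382, 0.307 and 0.166 CPM in the PBS libraries and 1.06, 0.824 and 0.671 CPM in the EET libraries. All EET libraries were above all PBS libraries, but the values rest on 4 to 7 counts with PBS and 14 to 27 counts with EET. Col6a3 measured 1.69, 1.62 and 1.83 CPM with PBS and 2.62, 3.29 and 3.50 CPM with EET, also without overlap. Col1a2 measured 17.2, 16.2 and 21.5 CPM with PBS and 29.7, 20.5 and 27.2 CPM with EET, where EET-2 lay below PBS-3.

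The log2 fold change of EET against PBS was 1.61 (SE 0.396, adjusted p = 0.0776) for Lum, 0.87 (SE 0.198, adjusted p = 0.0592) for Col6a3 and 0.50 (SE 0.133, adjusted p = 0.110) for Col1a2 by edgeR over 15050 genes. For Col1a2 the adjusted p was 0.0173 with DESeq2, 5.89e-06 in edgeR without a filter on low counts, 0.0178 with the replicate number as a block and 0.0461 without EET-2, and up to 0.432 under the other alternatives. Without the filter Col6a3 had an adjusted p of 0.00474 and Lum one of 0.0179, and across alternatives they reached 0.294 and 0.302.

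For the other genes the groups overlapped. Col1a1 measured 289, 204 and 206 CPM with PBS and 222, 231 and 231 CPM with EET, so the partner chain of Col1a2 had its 3 EET libraries inside the PBS range. Col3a1 measured 15.5, 15.7 and 19.5 CPM with PBS and 17.4, 14.0 and 16.2 CPM with EET. Col5a1, with 111, 105 and 98.0 CPM against 97.6, 107 and 106 CPM, varied little in either group. The log2 fold changes by edgeR were -0.02 for Col1a1, -0.09 for Col3a1, -0.01 for Col5a1, -0.11 for Col6a1, -0.23 for Dcn and -0.09 for Fmod, with adjusted p between 0.699 and 0.972. The first 3 and Fmod turned positive when 1 library was left out, at 0.16 for Col1a1, 0.04 for Col5a1 and 0.21 for Fmod without PBS-1 and at 0.02 for Col3a1 without PBS-3. Dcn was at 16 to 49 counts with PBS and 24 to 49 counts with EET, and Col6a4, at 6 to 15 counts per library, was not tested.

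Of the 9 genes tested, 0 passed by edgeR, where 1.22% of all genes did (184 of 15050). The count was 1 with DESeq2, among 322 genes called in all, and 1 with the replicate block, among 341. It was 3 without the filter on low counts, among 662, and those 3 include Lum. Lum passed the filter on low counts only through the EET libraries, where it is high, so its difference is fixed in part by the filter and it is left out of the counts that follow. Of the other 8, 2 had an unadjusted p under 0.05, Col1a2 and Col6a3, both higher with EET, against 6.03% of all genes in that direction. Col6a3 was the 1 of the 8 whose EET libraries all lay above the PBS libraries, which held for 8.06% of all genes.

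Of the 88 genes of the related lists tested between EET and PBS, 5 passed, where 1.22% of all genes did. Adamts2, the protease that removes the N-terminal propeptide of collagen I and III, rose by 0.34 on the log2 scale (SE 0.0741, adjusted p = 0.0465 by edgeR), from 40.8 ± 3.49 to 51.7 ± 4.02 CPM (SD, n = 3). Ltbp1, which anchors latent TGF-β in the matrix, rose from 403 ± 32.1 to 532 ± 20.3 CPM (adjusted p = 0.00574 by edgeR). Col16a1, a fibril-associated collagen, fell by 0.28 (adjusted p = 0.0390), the proteoglycan osteoglycin (Ogn) fell by 0.78 (adjusted p = 0.0230) and the fibulin Fbln2 fell by 0.34 (adjusted p = 0.0209) in the same edgeR test. Each is 1 gene of its list: 1 of 27 maturation enzymes, 1 of 17 TGF-β regulators, 1 of 9 fibrillar collagens, 1 of 7 proteoglycans and 1 of 11 matrix partners tested. In the lists of collagen VI chains, breakdown genes and receptors 0 genes passed by edgeR. At an unadjusted p under 0.05 there were 0 of 1, 4 of 6 and 2 of 10 tested, against 12.4% of all genes.

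The clearest differences in the set were between PBS-treated cultured mGCs and fresh EM-mGCs. By edgeR 7 of the 10 genes fell, where 37.9% of all 17301 genes tested fell and 69.0% changed in either direction. Lum and Col6a4, at 4 to 14 counts per PBS library, passed the filter on low counts only through EM-mGC, where they are high, so they add nothing to that count. With at least 10 counts required in every library 5 members fell, Col1a2, Col3a1, Col6a1, Col6a3 and Dcn, and Lum, Col6a4 and Fmod were not tested. Both groups came from EM mice, but culture, experiment and mice differ together and cannot be told apart, and the libraries are those used in the other comparisons. Mean levels went from 257 ± 77.7 to 18.3 ± 2.78 CPM for Col1a2, from 403 ± 117 to 16.9 ± 2.24 CPM for Col3a1 and from 358 ± 116 to 25.9 ± 4.43 CPM for Col6a1 (SD, n = 5 and 3). The lower genes went further, from 62.5 ± 20.2 to 1.72 ± 0.106 CPM for Col6a3, from 29.3 ± 3.48 to 0.453 ± 0.112 CPM for Col6a4, from 32.6 ± 12.2 to 0.285 ± 0.109 CPM for Lum and from 106 ± 42.3 to 1.63 ± 0.656 CPM for Dcn. Every PBS library lay below every EM-mGC library for the 5 genes that passed the stricter filter, as for Lum and Col6a4, and this held for 34.2% of all genes.

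By edgeR the 7 log2 fold changes ran from -3.81 (SE 0.282) for Col6a1 and -3.83 (SE 0.282) for Col1a2 through -4.60 (SE 0.298) for Col3a1, -5.20 (SE 0.306) for Col6a3, -6.00 (SE 0.221) for Col6a4 and -6.02 (SE 0.477) for Dcn to -6.86 (SE 0.503) for Lum, with adjusted p between 7.86e-08 and 4.27e-06. The median over all genes tested was -0.11, and with upper-quartile normalization it was -0.36.

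Col1a1, Col5a1 and Fmod did not pass. Col1a1 measured 187 ± 63.1 CPM in EM-mGCs and 233 ± 48.7 CPM with PBS. Its log2 fold change was 0.30 (SE 0.268, adjusted p = 0.345 by edgeR) and was 0.04 with upper-quartile normalization. Col5a1 measured 90.0 ± 23.4 and 104 ± 6.45 CPM. Its log2 fold change was 0.20 (SE 0.19, adjusted p = 0.377 by edgeR) and was -0.06 with upper-quartile normalization. Fmod measured 0.735 ± 0.307 and 1.43 ± 0.670 CPM, and its log2 fold change was 0.92 (SE 0.424, adjusted p = 0.0769 by edgeR). Without PBS-2 its adjusted p was 0.0254 and without EM-mGC-4 it was 0.0284.

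Chains that form one molecule stood in other proportions in culture. Per kb of transcript, the ratio of Col1a1 to Col1a2 was 1.18, 0.781, 0.752, 0.834 and 0.769 in the Con-mGC libraries and 0.664, 0.587, 0.643, 0.658 and 0.685 in the EM-mGC libraries. It was 15.1, 11.3 and 8.65 with PBS and 6.72, 10.2 and 7.64 with EET. All EM-mGC ratios were below all Con-mGC ratios, and all cultured ratios were far above all fresh ones. The level of a ratio depends on the length used, and with the exons of all transcripts joined the means of the 4 groups were 1.81, 1.36, 24.6 and 17.2, in the same order. The ratio of Col6a1 to Col6a2 was 1.97 ± 0.200 in Con-mGCs, 2.22 ± 0.277 in EM-mGCs, 14.7 ± 5.42 with PBS and 10.7 ± 3.21 with EET. In collagen V it was the partner chain that moved, and the ratio of Col5a2 to Col5a1 was 0.778 ± 0.115 and 0.773 ± 0.179 in the fresh groups against 9.27 ± 0.262 and 8.04 ± 0.337 in culture. No test was made on the ratios.

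**Figure D4:**
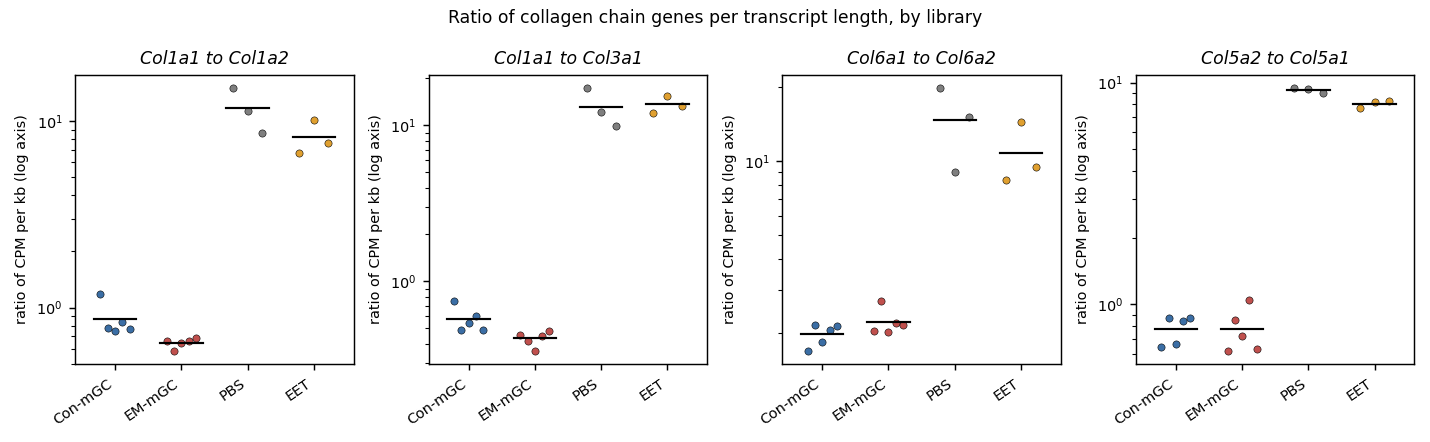
Ratio of the level per kb of transcript of 4 pairs of collagen genes in each library, on log axes, with a bar at the group mean. All 6 cultured libraries lay above all 10 fresh libraries in each panel, and Col1a1 to Col1a2 was 8.18 to 11.7 on average in culture against 0.647 to 0.862 in fresh mGCs.

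Among related collagens the direction was mixed between PBS and EM-mGC. Of 9 fibrillar and associated collagens tested, 4 rose and 4 fell by edgeR, where 31.1% of all genes rose and 37.9% fell. Col11a1, a chain of collagen XI that copolymerizes with fibrils, rose from 42.8 ± 6.56 to 806 ± 65.3 CPM (adjusted p = 7.86e-08 by edgeR). Col5a2 rose from 53.2 ± 11.2 to 764 ± 67.9 CPM, Col12a1 from 19.0 ± 5.67 to 238 ± 14.4 CPM and Col16a1 from 29.7 ± 9.06 to 63.9 ± 2.82 CPM. Col14a1, Col27a1, Col11a2 and Col5a3 fell, with log2 fold changes of -3.66, -2.86, -1.57 and -1.38. The remaining collagen VI chains all fell (3 of 3), Col6a2 from 187 ± 71.4 to 2.12 ± 0.477 CPM, Col6a5 from 57.6 ± 39.6 to 0.0744 ± 0.0440 CPM and Col6a6 from 21.1 ± 8.35 to 0.0875 ± 0.108 CPM. Col14a1, Col6a5, Col6a6 and the member Col6a4 passed the filter on low counts only through EM-mGC, where they are high. They thus add nothing to the counts of genes that fell. The members Col6a1 and Col6a3 fell too.

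Of the other small leucine-rich proteoglycans, 7 of 9 tested fell and 1 rose, where 37.9% of all genes fell and 31.1% rose. Their median log2 fold change was -2.83. Among those that fell, Aspn, Ecm2, Chad and Prelp passed the filter on low counts only through EM-mGC, where they are high, and add nothing to that count. Bgn fell from 135 ± 51.6 to 18.4 ± 3.07 CPM, Prelp from 6.44 ± 2.44 to 0.868 ± 0.320 CPM, Ecm2 from 9.52 ± 1.86 to 0.168 ± 0.0384 CPM and Aspn (asporin) from 5.18 ± 2.34 to 0.0555 ± 0.0961 CPM. Tsku, the gene of tsukushi, rose from 9.30 ± 0.856 to 29.0 ± 2.83 CPM.

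Most genes that modify and cross-link collagen rose. Of 27 maturation enzymes and chaperones 18 rose and 4 fell, with a median log2 fold change of 0.66, where 31.1% of all genes tested rose and 37.9% fell. Lox, the lysyl oxidase that cross-links collagen, rose from 22.3 ± 11.5 to 899 ± 20.3 CPM, and its relative Loxl4 from 0.973 ± 0.300 to 8.42 ± 0.850 CPM. Pcolce2, an enhancer of procollagen C-proteinase, rose from 0.554 ± 0.384 to 52.8 ± 1.56 CPM, and P3h2, a prolyl 3-hydroxylase, from 9.29 ± 5.86 to 202 ± 36.3 CPM. The 4 that fell were Colgalt2, Adamts2, Plod1 and Loxl1, with log2 fold changes of -5.54, -1.33, -0.71 and -0.31. The adjusted p for these 8 genes by edgeR lay between 5.22e-07 and 0.0392. Colgalt2 passed the filter on low counts only through EM-mGC, where it is high, and adds nothing to the count that fell. Pcolce2, at 0.129 to 1.08 CPM in EM-mGCs, met the filter in every PBS library, where it is high. It is likewise set aside from the count that rose.

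The counts of the next lists stand beside 31.1% of all genes that rose and 37.9% that fell. Of 10 breakdown genes 3 rose and 5 fell, and of 10 collagen receptors 3 rose and 4 fell, neither far from those shares. Mmp8, Mmp9, Ctsk and Fap passed the filter on low counts only through EM-mGC, where they are high. They thus add nothing to the count of breakdown genes that fell. Cspg4 passed it in the same way and adds nothing to the count of receptors that fell. The inhibitors Timp3 and Timp2 and the membrane protease Mmp14 rose, by 3.05, 1.58 and 1.44 on the log2 scale, and the collagen uptake receptor Mrc2 and cathepsin K (Ctsk) fell by 1.66 and 3.14. Mmp9 and Mmp8, known from neutrophils, went from 8.38 ± 2.84 and 4.92 ± 4.86 CPM to 0.0831 ± 0.0698 and 0.0182 ± 0.0315 CPM. Fap was at 1.32 ± 0.556 CPM in EM-mGCs and had 0 counts in the PBS libraries. Among the receptors Ddr1, a receptor tyrosine kinase for collagen, rose from 71.2 ± 12.5 to 934 ± 104 CPM, and Cspg4 fell from 8.43 ± 2.98 to 1.26 ± 0.575 CPM. Of the 12 stromal matrix partners 8 fell, among them Vcan (-4.58), Thbs2 (-4.44) and Emilin1 (-3.80), and 3 rose, Fbln2 (3.33), Thbs1 (3.06) and Sparc (1.91), all as log2 fold changes. Thbs2, Dpt and Postn passed the filter only through EM-mGC and add nothing to the count of partners that fell. Of 17 regulators of the TGF-β pathway 9 rose and 5 fell. Ccn1, Smad7 and Tgfb2, which rose, had log2 fold changes of 4.23, 3.37 and 2.62, and Tgfbr3, Pdgfra, Pdgfrb and Tgfbr1, which fell, of -3.89, -3.19, -2.97 and -1.25.

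Most markers of theca, stroma and endothelial cells fell along with the members. Ptch1 of the theca list did not, at a mean of 44.8 CPM in EM-mGCs and 52.2 CPM with PBS. In the PBS libraries Cyp17a1 was at 0 to 0.109 CPM, the endothelial gene Cldn5 and the neutrophil genes S100a8 and S100a9 had 0 counts, and the stroma markers Tcf21, Mfap4 and Dpt were at a mean of 0.293, 0.0139 and 0.0182 CPM. Theca markers summed to 50.1 to 56.5 CPM with PBS against 858 to 1371 CPM in EM-mGCs, and 1 of 6 reached a mean of 1 CPM with PBS, Ptch1. Most of the EM-mGC sum came from Lhcgr, at a mean of 825 CPM against 0.331 CPM with PBS, so the theca sum mainly follows that gene. Stroma markers summed to 23.0 to 30.2 CPM against 73.9 to 126 CPM, and 3 of 8 reached 1 CPM with PBS, with Nr2f2 at 21.0 CPM. Smooth muscle markers went the other way, at 577 to 775 CPM against 106 to 277 CPM, most of it from Acta2. Granulosa markers were partly kept, with Inha at 2531 to 3050, Inhba at 2172 to 2303 and Foxl2 at 138 to 157 CPM in PBS libraries. Cyp19a1 was at 0 to 0.375 and Amh at 0.208 to 0.436 CPM there. Means of Fshr, Nr5a2, Hsd17b1 and Amhr2 were 5.16, 106, 136 and 55.7 CPM with PBS against 103, 791, 507 and 98.1 CPM in EM-mGCs. How far a loss of theca, stroma or endothelial cells accounts for the fall of the 7 genes was not tested.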

How the data were processed

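RNA-seq covered 16 libraries, 5 Con-mGC, 5 EM-mGC, 3 PBS and 3 EET, and groups were taken from the sample labels. The authors deposited raw read counts per Ensembl gene in 2 tables, made with featureCounts. The submitters' processing notes also name fastp, HISAT2, StringTie and the build GRCm39, and the strand and multimapping settings are not given in the sources used here, so genes that share reads with an overlapping gene are uncertain. No column was left unused (0 columns). Total counts ranged from 14229123 to 29482826, and scarce genes are limited by counting error.

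From these counts, genes were kept with filterByExpr in edgeR 4.0.16 (R 4.3.3, limma 3.58.1), scaled by TMM and compared within each pair of groups by the two-sided quasi-likelihood test, with Benjamini-Hochberg adjustment over all genes kept and a threshold of 0.05 without a fold limit. The study used DESeq2, which was run as an alternative (DESeq2 1.42.0). The other alternatives were RLE and upper-quartile scaling, no filter, at least 10 counts in every library, mitochondrial genes left out, a fit of protein-coding genes alone, a block by replicate number and each library left out in turn. Levels per kb used the longest coding transcript of GENCODE M21 (lengths only). Likeness used log2(CPM + 1).

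The members and the lists were chosen with earlier results of these data known. Of each list, up to 4 called genes with the highest and up to 4 with the lowest log2 fold change were named, or, with no call, up to 2 of the most abundant. Candidates for the most alike genes had a mean of at least 1 log2 CPM and no predicted symbol, and 7 are given. Some genes these rules name are not reported here. RefSeq promoter windows (GRCm38.p6) were matched by symbol for 7 of the 10 genes. On simulated counts with 200 changed genes, edgeR recovered 139 with 8 false calls in the EM-mGC and Con-mGC design (16944 genes), 181 with 18 in the EET and PBS design (14851 genes) and 127 with 7 in the PBS and EM-mGC design (16763 genes). In the same order of designs DESeq2 recovered 150 with 33 false calls, 175 with 17 and 143 with 36.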

Additional observations from a re-analysis of the deposited data

How the results depend on the processing

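Between EM-mGC and Con-mGC, 176 of 179 member values were kept under the alternatives, which for tested genes means the same direction and side of the threshold. The 179 include 18 values of Col6a4, which had no test. These counted as kept when the direction held and the shift was below the SD of its log2(CPM + 1) in EM-mGCs. Calls among all genes went from 0 to 116 with DESeq2, 4 without a filter and 2 with the replicate block, and members called from 0 to 1 (Col1a1) with DESeq2. Leaving out 1 library gave 0 to 46 calls, 46 without Con-mGC-3 and 1 without EM-mGC-1, and 0 members. Without 1 library the Dcn log2 fold change was -0.057 to 0.334, lowest without EM-mGC-4. Between EET and PBS, 113 of 125 member values were kept. The 184 calls among all genes became 322 with DESeq2, 662 without a filter and 341 with the replicate block, and members called went from 0 to 1, 3 and 1. Leaving out 1 library gave 48 to 436 calls and 0 to 1 members (Col1a2 without EET-2), with 350 calls without PBS-1, 436 without PBS-2, 122 without EET-1, 61 without EET-2 and 48 without EET-3. Signs turned within the ranges without 1 library for Col1a1 (-0.110 to 0.160, highest without PBS-1), Col3a1 (-0.167 to 0.0186, highest without PBS-3), Col5a1 (-0.0583 to 0.0359, above 0 without PBS-1 and without EET-1) and Fmod (-0.422 to 0.209, above 0 without PBS-1 and without PBS-3). Between PBS and EM-mGC, 154 of 157 were kept and the log2 fold change of Col5a1 was -0.0597 with upper-quartile scaling. The causes were not tested. Same-numbered EET and PBS libraries deviated together at r = 0.0985, 0.194 and -0.0588, so the replicate block rests on the methods' wording that replicates were paired, and it changed no call of a member other than Col1a2. Depth limits Lum, Fmod and Col6a4 in culture, at 4 to 38 counts per library.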
